A study of Saccharomyces cerevisiae with 7 samples.

Results

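The mitochondrial ATP synthase of Saccharomyces cerevisiae is described here through the transcripts of 10 of its nuclear genes, chosen by gene name from the 3000 protein-coding entries (3196 transcripts in all) of the annotation that accompanies a study of RNA structure. The F1 sector was represented by ATP1 (YBL099W), ATP2 (YJR121W), ATP3 (YBR039W), ATP16 (YDL004W) and ATP15 (YPL271W), and the stalk and membrane subunits by ATP5 (YDR298C), ATP4 (YPL078C), ATP7 (YKL016C), ATP14 (YLR295C) and ATP17 (YDR377W). In the study, polyadenylated RNA of yeast in log phase at 23 °C, extracted with hot phenol, was refolded in vitro and cut with RNase V1, a nuclease of paired RNA (4 libraries), or nuclease S1, a nuclease of unpaired RNA (3 libraries). The sample titles name total RNA, whereas the molecule and source labels and the protocol name polyA RNA. No strain, allele or further treatment is given in the labels for either set of libraries. Cleavage values were not used here, which leaves no comparison of the nucleases and no depth for any library. The values are annotated positions and lengths, which are 1 value per gene with no replicate error, and spreads are standard deviations (SD) over genes. Shares and medians of all mRNAs, those of overlap included, refer to the listed entries only. Of 6008 nuclear reading frames in the R64 reference genome, 2999 (49.9%) have an entry.

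The ATP synthase is a rotary enzyme of the mitochondrial inner membrane. Protons that pass through its membrane sector turn a ring and a central stalk, and the turning stalk drives ATP formation in the F1 head on the matrix side, while a peripheral stalk holds the head still. In yeast the ring subunit and a few membrane subunits are encoded in mitochondrial DNA, and the other subunits are made in the cytosol and imported. Genes of respiration are known targets of the Hap complex, an activator that binds CCAAT in promoters, and Puf3 is an RNA-binding protein known for binding mRNAs of mitochondrial proteins in their 3' untranslated regions (3' UTRs).

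The letters CCAAT stood within the 250 nt upstream of 9 of the 10 start codons. Of R64 reading frames, 43.3% held CCAAT on either strand in a window that also took in the first 50 nt of coding region. The ATP1 match shown lay farther upstream and was found in a window added after the data were seen, so it is not part of this count. The matches on the sense strand are shown with 10 bases on each side. They were read 5' to 3' from the R64 reference genome of RefSeq, at the reference's own coordinates, and capitals mark the motif. For ATP2 the farther of its sense matches is shown, and for ATP1 the sense match that lay before its annotated 5' end.
ATP1: ccggccctggCCAATcagatccctt
ATP2: ccaggacaggCCAATtggataaatt
ATP3: tgatggagaaCCAATgagcggcgag
ATP16: agatgcccagCCAATcaaagcgcat
ATP15: tttatacgaaCCAATgaaatttgat
ATP5: atttcaaacgCCAATtgttaacttt
ATP4: caatattgaaCCAATcacgacgctt
ATP7: aaaagatacaCCAATtaccacttgc
ATP14: catacacgaaCCAATtatgcatcat
ATP17: acggagagaaCCAATcatatcgaag

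In R64 the sites above lie on the plus strand at chr2:36573-36597 for ATP1, chr10:647412-647436 for ATP2, chr2:315370-315394 for ATP3, chr4:442855-442879 for ATP16, chr16:29936-29960 for ATP15 and chr4:1228372-1228396 for ATP17. They lie on the minus strand at chr4:1058963-1058987 for ATP5, chr16:408919-408943 for ATP4, chr11:408152-408176 for ATP7 and chr12:722556-722580 for ATP14.

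In a window from 250 nt before the start codon to 50 nt into the coding region, 9 of the 10 ATP synthase genes held CCAAT on either strand, against 43.3% of 6008 nuclear reading frames of R64. The same 9 genes held it on the sense strand, against 24.3% of reading frames. The longer form CCAATNA, which contains CCAAT, was found on either strand for 7 of the 10, against 16.0% of reading frames. ATP1, ATP2 and ATP5 were the members without CCAATNA in the window. No test was made of these counts, and a match of letters is a description of the window, not a binding site.

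The sense matches shown for the 9 genes began between 133 nt (ATP15) and 229 nt (ATP17) before the start codon, with a median of 185 nt. ATP2 had another sense match 46 nt before its start codon, which was left out of this range and median. The search window ended 250 nt before the start codon, so the range is bounded by the search as well. In ATP2 the farther sense match, at 185 nt, overlapped a match on the other strand. ATP4, ATP7 and ATP15 each had a further match on the other strand, at 219, 220 and 247 nt before the start codon, and ATP16 had one within its coding region.

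Measured from the annotated 5' end of the mRNA, the sense matches of the 8 genes with a 5' UTR and a match in the window lay 30 to 161 nt upstream, with a median of 115.5 nt. The nearest was that of ATP5 (30 nt) and the farthest that of ATP14 (161 nt). The window before the ATP1 start codon held no match, and 250 nt of it fell inside the 298 nt 5' UTR of that gene. When the 250 nt before the annotated 5' end were searched instead, an alternative added after the data were seen, ATP1 held 3 matches, of which the sense match shown began 172 nt before the 5' end. By that rule 9 of 9 members with a 5' UTR held CCAAT, against 34.9% of 2678 mRNAs.

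**Figure D1:**
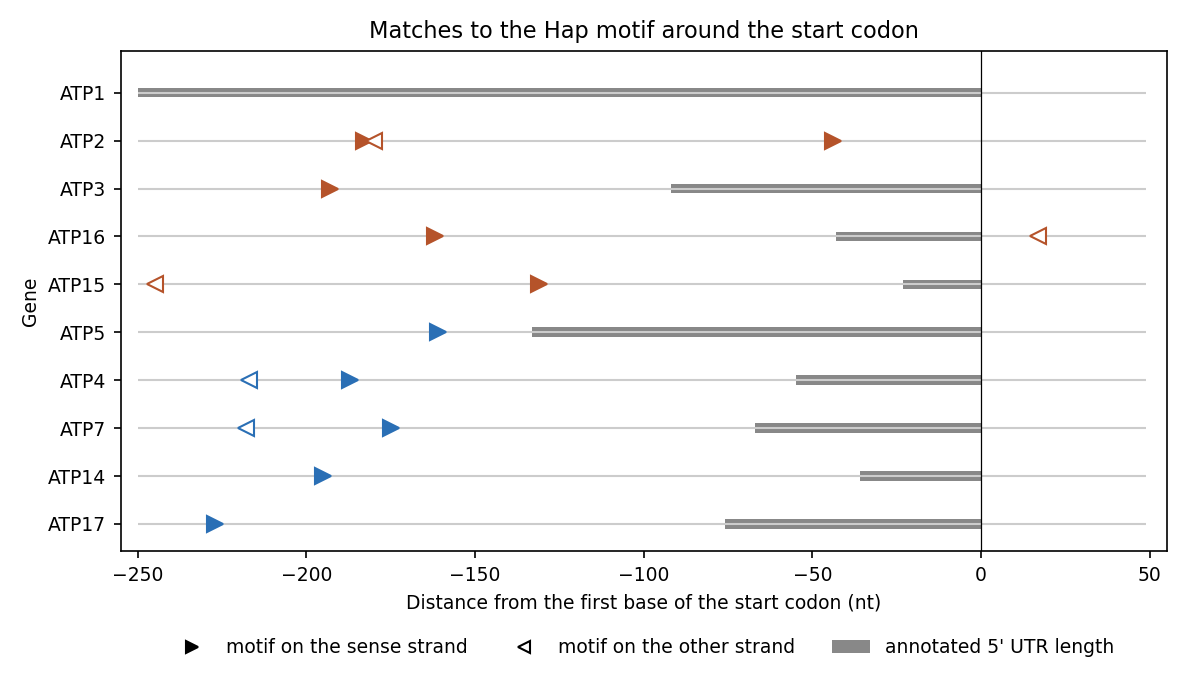
Position of each match to the Hap motif (CCAAT) relative to the first base of the start codon, in nt, for the 10 genes, with F1 genes in orange and stalk and membrane genes in blue; filled triangles are sense-strand matches, open triangles matches on the other strand, and grey bars the annotated 5' UTR up to 250 nt. In 9 genes a sense match lies 133 to 229 nt before the start codon, and the ATP1 window is taken up by its 5' UTR.

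Genes of the other respiratory complexes held the motif at shares that were also above the 43.3% of all reading frames. CCAAT stood in the window of 7 of 10 genes of the cytochrome bc1 complex and cytochrome c and of 8 of 9 genes of cytochrome c oxidase. CCAATNA stood in the window of 5 of 10 genes of the bc1 complex and cytochrome c and of 8 of 9 genes of cytochrome c oxidase. Its share of all reading frames was 16.0%. In the 250 nt before the annotated 5' end, CCAAT stood in 8 of 10 and 9 of 9 genes, in the same order, against 34.9% of 2678 mRNAs. These counts are given as a description, and no difference between the lists was tested.

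The members were laid out on 6 chromosomes, none had an annotated intron (6.63% of all mRNAs have one), and their transcripts ran from 341 nt (ATP15) to 2203 nt (ATP1). ATP1 encodes the alpha subunit of the head and was listed on chromosome 2 at 36752 to 38954 on the plus strand. ATP2, the catalytic beta subunit, lay on chromosome 10 at 647598 to 649204 on the plus strand. ATP3, the gamma subunit that forms the shaft of the central stalk, lay on chromosome 2 at 315483 to 316690 on the plus strand. ATP16 and ATP15, the delta and epsilon subunits at the foot of that stalk, lay on the plus strand of chromosome 4 at 442984 to 443751 and of chromosome 16 at 30056 to 30396.

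ATP5 encodes the oligomycin sensitivity conferring protein, which joins the peripheral stalk to the head, and lay on chromosome 4 at 1058017 to 1058944 on the minus strand. ATP4, subunit b, the long arm of the peripheral stalk, lay on chromosome 16 at 407776 to 408796 on the minus strand. ATP7, subunit d of that stalk, lay on chromosome 11 at 407037 to 407699 on the minus strand. ATP14, subunit h of that stalk, lay on chromosome 12 at 721762 to 722411 on the minus strand. ATP17, subunit f of the membrane sector, lay on chromosome 4 at 1228528 to 1229314 on the plus strand. All of these positions come from the annotation, for which no genome build is stated in the sources used here.

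**Figure D2:**
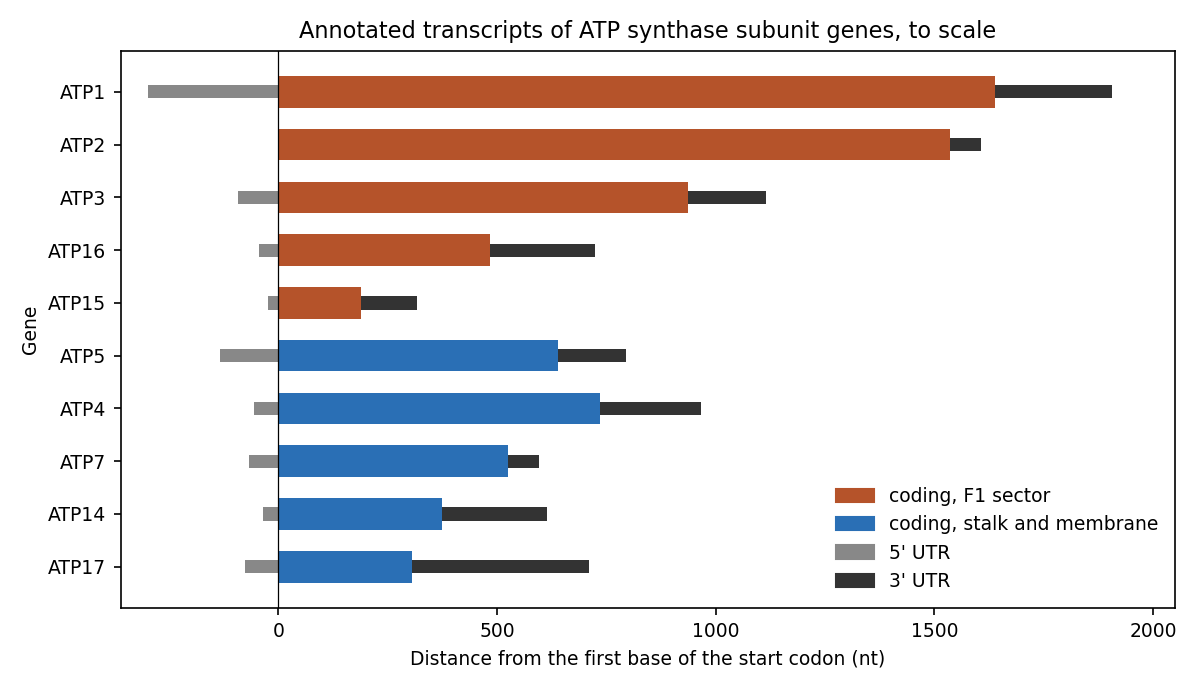
Annotated transcripts of the 10 genes to scale, in nt from the first base of the start codon, with F1 coding regions in orange, stalk and membrane coding regions in blue, 5' UTRs in grey and 3' UTRs in black. ATP1 and ATP2 have the longest coding regions (1638 and 1536 nt), ATP2 has no 5' UTR, and in ATP17 the 3' UTR (405 nt) is longer than the coding region (306 nt).

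In the F1 sector, coding length spanned the whole range of the members. The coding region was 1638 nt in ATP1, 1536 nt in ATP2, 936 nt in ATP3, 483 nt in ATP16 and 189 nt in ATP15, stop codon included. The stalk and membrane subunits were more alike, with 639 nt in ATP5, 735 nt in ATP4, 525 nt in ATP7, 375 nt in ATP14 and 306 nt in ATP17. The subunits of the head were the long ones, and only 0.867% of all mRNAs had a shorter coding region than ATP15.

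The F1 sector had a mean coding length of 956 nt ± 635 (SD over 5 genes) and a median of 936 nt, and the stalk and membrane subunits had a mean of 516 nt ± 178 (SD over 5 genes) and a median of 525 nt. The difference of the log2 medians was 0.83, less than the pooled SD of 0.99 between genes, and the ranges overlapped. ATP1 and ATP2, the subunits of the head, lay apart from the other 8 members, whose coding regions ran from 189 to 936 nt. In all, 2 of the 10 members lay above the median coding length of all mRNAs (1080 nt), where 49.9% of mRNAs lie. Those 2 were ATP1 and ATP2.

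At the 5' end, ATP1 stood out from the other members. Its 5' UTR of 298 nt (chromosome 2, 36752 to 37049) was longer than 97.1% of the 5' UTRs of all mRNAs. ATP3 had 92 nt, ATP16 had 43 nt and ATP15 had 23 nt. ATP2 was the only member with no listed 5' UTR, and its annotated transcript began at the start codon, while 89.3% of all mRNAs had a 5' UTR.

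Among the stalk and membrane subunits, the 5' UTR was 133 nt in ATP5, 55 nt in ATP4, 67 nt in ATP7, 36 nt in ATP14 and 76 nt in ATP17. The longest of them, that of ATP5, was longer than 84.2% of all 5' UTRs. The F1 sector had a median of 67.5 nt (4 genes, mean 114 nt ± 126 SD), and the stalk and membrane subunits had a median of 67 nt (5 genes, mean 73.4 nt ± 36.5 SD). The log2 medians differed by 0.01, against a pooled SD of 1.16 between genes, and the ranges overlapped. Without ATP1, or without ATP3, the log2 medians differed by -0.64, and without ATP16, or without ATP15, by 0.46.

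Over the 9 members with a 5' UTR the median was 67 nt, against 50 nt in all mRNAs, and 6 of 9 lay above that median, where 49.8% of mRNAs lie. ATP16, ATP15 and ATP14 lay below it. None of the 9 members had an ATG within its annotated 5' UTR length upstream of the R64 start codon, against 84.8% of 2678 mRNAs without one. ATP1 has a long 5' UTR, and of the 197 mRNAs with a 5' UTR of at least 200 nt, 46.7% had no ATG in it. An ATG was also absent in 10 of 10 genes of the bc1 complex and cytochrome c and 8 of 9 of cytochrome c oxidase. The same held in 10 of 10 other ATP synthase genes, described below. In a fixed 100 nt before the start codon, 6 of 10 members had no ATG, against 47.9% of R64 reading frames. ATP16, ATP15, ATP4 and ATP14 had an ATG there, so the count depends on the annotated 5' ends. The nearest ATG upstream of the ATP1 start codon was 450 nt away, farther than in any other member (50 to 438 nt).

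The 3' UTR was the longer end in 8 of the 9 members that had both UTRs, against 75.1% of 2674 mRNAs. It was also the longer end in 10 of 10 other ATP synthase genes, described below. The same held in 9 of 10 genes of the bc1 complex and cytochrome c and 8 of 9 of cytochrome c oxidase. The exception was ATP1, with 267 nt at the 3' end and 298 nt at the 5' end. The ends were nearly even in ATP7 (71 nt at the 3' end and 67 nt at the 5' end) and in ATP5 (156 nt and 133 nt in the same order). The 3' UTR was 5.63 times the 5' UTR in ATP16, 5.61 times in ATP15, 5.33 times in ATP17, 4.20 times in ATP4 and 6.64 times in ATP14, and these were the 5 of 9 members with a ratio of at least 2, against 51.6% of mRNAs.

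The 3' UTR in the F1 sector was 267 nt in ATP1, 71 nt in ATP2, 180 nt in ATP3, 242 nt in ATP16 and 129 nt in ATP15. In the stalk and membrane subunits it was 156 nt in ATP5, 231 nt in ATP4, 71 nt in ATP7, 239 nt in ATP14 and 405 nt in ATP17. Each group thus held a gene at 71 nt and genes above 200 nt, and the ranges overlapped. The F1 sector had a median of 180 nt (mean 178 nt ± 80.4 SD, 5 genes), and the stalk and membrane subunits had a median of 231 nt (mean 220 nt ± 123 SD, 5 genes). The log2 medians differed by -0.36, less than the pooled SD of 0.86 between genes. The small membrane subunits ATP18, ATP19, ATP20 and TIM11 (136, 103, 111 and 184 nt) were not in the stalk and membrane group. All of them lay below its median of 231 nt, and the difference with them included was not computed.

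In order of length the 3' UTRs ran ATP17, ATP1, ATP16, ATP14, ATP4, ATP3, ATP5, ATP15, and then ATP2 and ATP7 at the same length. ATP16, ATP14 and ATP4 lay close together. The ATP17 3' UTR (chromosome 4, 1228910 to 1229314) was longer than 98.8% of all 3' UTRs. The ATP2 and ATP7 3' UTRs were longer than 24.0%. As background, ATP2 mRNA is known to be enriched at the mitochondrial surface, and its 3' UTR to take part in this.

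The 10 members had a median of 205.5 nt at the 3' end and all mRNAs one of 106 nt, a log2 ratio of 0.96. In count, 8 of 10 lay above that median, where 49.8% of mRNAs lie. The 3' UTRs of ATP synthase subunits were part of the list whose long 3' ends were known from these data when the 10 genes were chosen, so this count is no independent evidence. UTRs made up 61.1% of the ATP17 transcript, 44.6% of ATP15 and 42.3% of ATP14, against 4.42% of ATP2. The median over the 10 members was 29.6%, against 13.9% in the 2887 mRNAs with at least 1 UTR. It was higher in the lists most alike. These medians were 34.8% in the other ATP synthase genes described below, 43.6% in the bc1 complex and cytochrome c and 53.0% in cytochrome c oxidase.

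**Figure D3:**
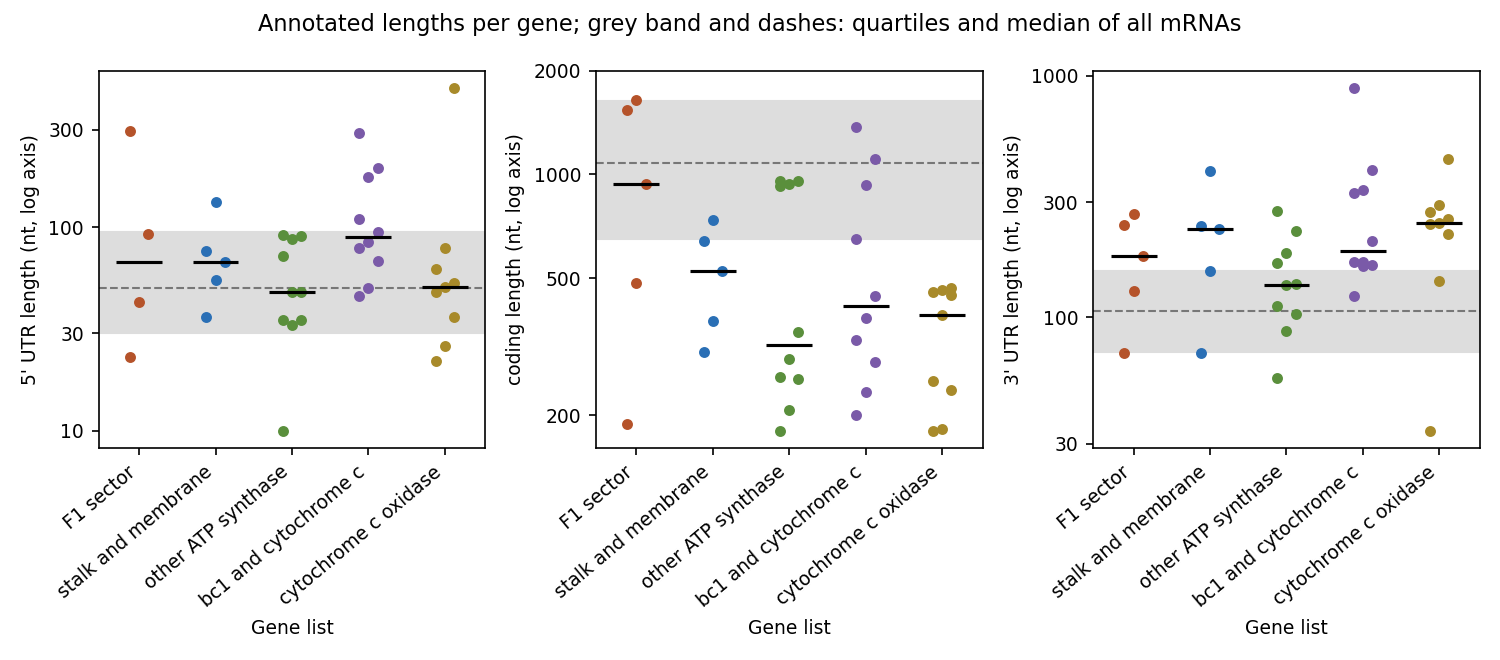
Annotated 5' UTR, coding and 3' UTR length of each gene (points, nt, log axes) in 5 lists, with the list median as a black bar, and the median (dashes) and quartiles (grey band) of all mRNAs. F1 genes and stalk and membrane genes overlap in each panel, and 8 of the 10 members lie above the 106 nt median of 3' UTRs.

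Genes of the cytochrome bc1 complex with cytochrome c (10 genes with an entry, of 11) and of cytochrome c oxidase (9 genes) are the nearest in function. The median 3' UTR was 205.5 nt in the ATP synthase subunits, 188.5 nt in the bc1 list and 246 nt in the oxidase list, and the ranges overlapped, from 71 to 405 nt in the ATP synthase subunits, 122 to 892 nt in the bc1 list (QCR6 to CYC1) and 34 to 453 nt in the oxidase list (COX5B to COX6). The median 5' UTR was 67 nt, 89.5 nt and 51 nt in the same order of lists. The longest 5' UTRs of the lists were those of ATP1 (298 nt), CYT1 (289 nt) and COX4 (484 nt). Median coding length was 582 nt in the ATP synthase subunits, 414 nt in the bc1 list and 390 nt in the oxidase list. By mean log2 length in place of medians, an alternative added after the data were seen, the 3' UTR of the ATP synthase subunits differed from that of the bc1 list by -0.49, where the log2 medians differed by 0.12, so the direction turned with the summary used. No difference between these lists was tested.

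The other genes around the enzyme were taken from a list of 23, of which 10 had an entry. Small membrane subunits had 3' UTRs of 136 nt (ATP18, subunit i or j), 103 nt (ATP19, subunit k), 111 nt (ATP20, subunit g) and 184 nt (TIM11, subunit e), and 5' UTRs of 33 to 48 nt. Subunits e and g are known to hold the enzyme in dimers. INH1, the inhibitor of ATP hydrolysis, had a 3' UTR of 88 nt, and STF2, a factor named for stabilising that inhibition, had 137 nt. ATP11, an assembly factor of F1, had the shortest UTRs of this list at both ends (10 nt and 56 nt). The carriers that supply the enzyme had 227 nt (MIR1, phosphate) and 275 and 168 nt (PET9 and AAC3, ADP and ATP) at the 3' end.

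The median 3' UTR was 205.5 nt in the 10 members and 136.5 nt in these 10 other genes, of which 7 lay above the 106 nt median of all mRNAs. As 4 of the other genes are also subunits, this is not a comparison of subunits with non-subunits. The median 5' UTR was 67 nt in the members and 48 nt in the other genes. CCAAT stood on either strand in the promoter window of 7 of the 10 other genes, against 43.3% of R64 reading frames. These were the 4 small membrane subunits, INH1, STF2 and MIR1. The same 7 genes held CCAATNA, against 16.0% of reading frames. On the sense strand 5 of the 10 held CCAAT, against 24.3%.

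In the 3' regions, the motif TGTANATA, the core recognised by Puf3, was searched on the sense strand. It is shown with 11 bases on each side, in capitals, for the 3 members in which it fell within the annotated 3' UTR length.
ATP1: tcaaaaagaaaTGTAAATAtagaaatttta
ATP14: aaaaatacaatTGTACATAgacacgtcttt
ATP17: atatatatataTGTATATAgatatgggtgt

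In R64 these lie at chr2:38729-38758 on the plus strand for ATP1, chr12:721783-721812 on the minus strand for ATP14 and chr4:1229227-1229256 on the plus strand for ATP17. The motif began 50 nt after the stop codon in ATP1, 198 nt after it in ATP14 and 322 nt after it in ATP17. In ATP5 it occurred at 254 and 490 nt, beyond the annotated 3' UTR of 156 nt. The other 6 members had no match in the 500 nt after the stop codon, so 4 of 10 held it there, against 18.9% of reading frames, and in 150 nt only ATP1 did, against 12.5%.

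In the 250 nt after the stop codon, 2 of 10 members (ATP1 and ATP14) held the motif, against 15.1% of R64 reading frames, and within the annotated 3' UTR length 3 of 10 did, against 14.6% of 2881 mRNAs. With counts this small no enrichment was read from them. In the bc1 list 0 of 10 genes held the motif in 250 nt and in the oxidase list 1 of 9 (COX8), while 4 of the 10 other ATP synthase genes did (ATP18, ATP19, TIM11 and ATP11). Within the annotated 3' UTR length it was found in 1 of 10 bc1 genes (QCR9) and 1 of 9 oxidase genes (COX8). By that measure 3 of the 10 other ATP synthase genes held it (ATP18, ATP19 and TIM11).

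**Figure D4:**
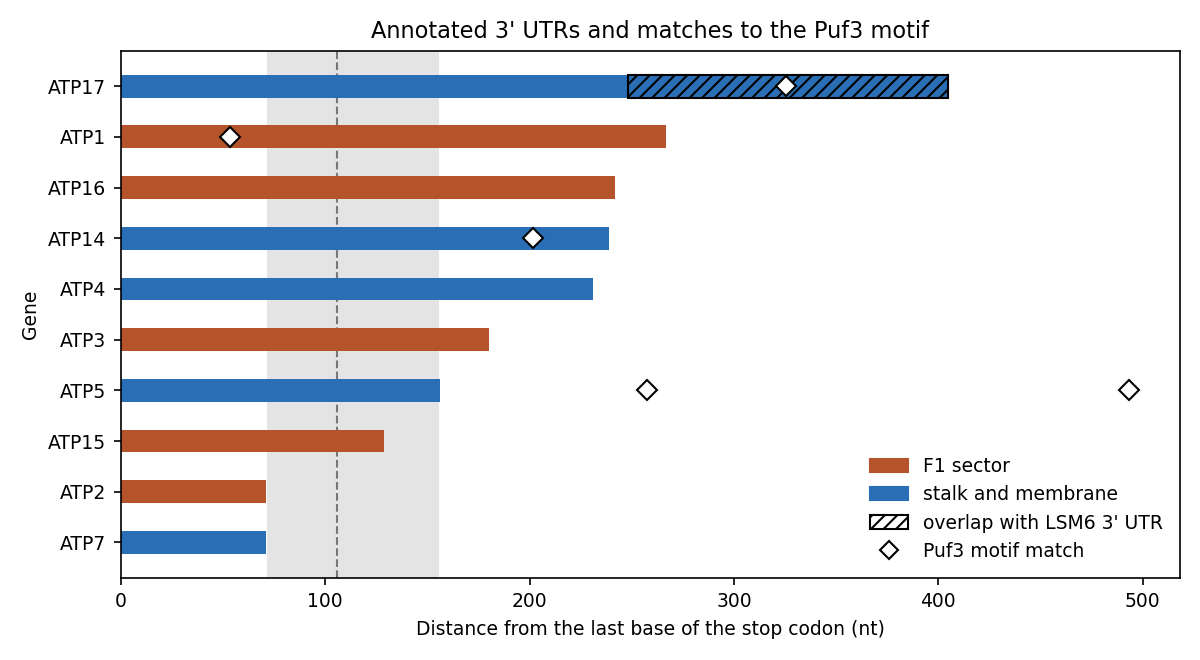
Annotated 3' UTR of each member (bars, nt after the stop codon, longest at the top), with F1 genes in orange and stalk and membrane genes in blue, matches to the Puf3 motif as diamonds, the overlap with LSM6 hatched, and the median (dashes) and quartiles (grey band) of all mRNAs. Matches lie within the 3' UTR in ATP17, ATP1 and ATP14 and beyond it in ATP5.

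Of the 10 members, 1 overlapped a neighbouring mRNA by at least 1 nt, against 16.8% of all mRNAs, and the same gene did so by at least 50 nt, against 13.6%. The 3' UTR of ATP17 met that of LSM6, which encodes an Sm-like RNA-binding protein and runs towards it on the minus strand, over 157 nt on chromosome 4 (1229158 to 1229314). The overlap made up 38.8% of the ATP17 3' UTR and 85.3% of the 184 nt LSM6 3' UTR, and it reached no coding region. The Puf3 motif of ATP17, at 322 nt, lay beyond the first 248 nt of its 3' UTR, that is, within the stretch shared with LSM6.

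No overlap with an annotated mRNA was listed for the other members, but many of their neighbours in R64 were not among the entries analysed here. Downstream, the gap to the next annotated transcript was 85 nt for ATP15 (to MDL2), 133 nt for ATP4 (to RPL21B), 165 nt for ATP1 (to BNA4), 254 nt for ATP5 (to SUR2) and 287 nt for ATP14 (to GSP1), each of which is also the next gene in R64. For ATP2, ATP3, ATP16 and ATP7 the next gene in R64 was not among the entries analysed here, so no gap is given. The same held upstream for ATP1, ATP16, ATP15, ATP5, ATP4, ATP7 and ATP14, so ATP16 and ATP7 have no gap on either side. Upstream, the ATP2 start codon lay 130 nt from the end of the DMO1 transcript, the ATP17 5' end lay 194 nt from ARH1 and the ATP3 5' end 521 nt from CHS2, all on the same strand.

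Around the reading frames, 9 of 10 ATP synthase genes had A at the third base before the start codon, against 60.9% of R64 reading frames, and ATP3, with G, was the exception. The stop codon was TAG in ATP2, ATP16, ATP15 and ATP7 (4 of 10, against 23.0% of reading frames), TAA in ATP1, ATP5 and ATP4 (47.4%) and TGA in ATP3, ATP14 and ATP17 (29.6%). The 3' UTRs of the members held 22.8% (ATP1) to 33.8% (ATP2) G and C, with a median of 29.9% against 28.2% in all mRNAs. Their 5' UTRs held 26.9% (ATP7) to 44.4% (ATP14), with a median of 34.5% against 34.2% in all mRNAs.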

How the data were processed

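The deposited file lists genome positions of transcripts, exons and UTRs, counted from 1, per the design text; other values from the authors were not used. The build, the aligner and the way UTR ends were set are not stated in those sources. The 7 libraries were grouped by nuclease (4 RNase V1, 3 nuclease S1), and with no values per library no depth or precision can be given. Lengths were end minus start plus 1, and introns were gaps of at least 10 nt between exons. Coding regions ran from ATG to a stop codon at their positions in R64 for 428 of 3000 mRNAs (14.3%) and for 2 of the 10 members (ATP3 and ATP15), so builds were not mixed: sequence was read from R64 by gene name at R64 coordinates. Coding lengths of all 10 members were equal in both. A UTR length from the annotation was counted off from the R64 start or stop codon, which assumes no insertion or deletion between builds there. No promoter table was given, so promoter windows came from the genome. Members and lists were chosen with earlier results of these data known. All 10 members are named, with the extremes of the other lists, every gene of the other ATP synthase list with an entry, and neighbours that overlap or stand nearest. Genes are not replicates, so no p-value was computed: counts and medians stand beside those of all mRNAs. The search for the Puf3 motif after the stop codon was tested on simulated sequence of C and G only, into which the motif was planted. That test checked position and strand, and could not show how often unplanted matches arise. The search for CCAAT was not tested. Python 3.11.15 and NumPy 2.4.6 were used.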

Additional observations from a re-analysis of the deposited data

How the results depend on the processing

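No paired analysis was possible because the file used holds positions of genes and nothing per library. RNase V1 was therefore not compared with nuclease S1. Of 126 alternative values over 20 results, 119 moved by less than the SD between genes or, for counts, by no more than the ratio of 1.5. This tally is no measure of robustness. Many of the alternatives leave out 1 member, which can change a count by at most 1. Values whose sign turned were also among the 119, as for the 3' UTR against the bc1 list (0.12 to -0.49). So was the number of members without an upstream ATG, which went from 9 to 6 in a fixed 100 nt. The alternatives on the sense strand, on windows set by the annotated UTRs and on means for the other respiratory lists were chosen after seeing the data. Taking ATP1 and ATP2 against the other 8 members gave a log2 difference of 2.29 for the 5' UTR, where ATP1 is the only gene of the first group with a value. Leaving out each member in turn gave log2 differences of the F1 sector from the stalk and membrane subunits of -0.64 to 0.46 for the 5' UTR, -0.58 to -0.10 for the 3' UTR and 0.43 to 1.24 for coding length, so the sign of the 5' UTR difference turns with the choice of member. The number of members above the median coding length was 1 among mRNAs with both UTRs, since ATP2 has none at the 5' end, and 1 to 2 when a member was left out. For the 3' UTR, 7 to 8 members stayed above the median and the log2 ratio to all mRNAs was 0.76 to 1.12. The 3' UTR was at least 2 times the 5' UTR in 5 of 9 members, against 51.6% of mRNAs. The Puf3 motif was found in 1 member in 150 nt (12.5% of reading frames) and in 4 in 500 nt (18.9%). Depth could not be weighed.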
